A study of Mus musculus with 6 samples.

Results

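Ubiquitin-specific proteases (USPs) are the largest family of deubiquitinases, the enzymes that cut ubiquitin from proteins. The members described here are the genes whose mouse symbol is Usp followed by a number, with Usp18 left out, and 43 of the 13363 genes listed for gastrocnemius muscle met that rule. The mouse annotation (RefSeq, GRCm38.p6) holds 58 such symbols, and the 15 others, among them Usp9y, Usp26, Usp29, Usp43, Usp44, Usp50 and Usp51, had no row in the table and were not analysed here. 1 of the 43, Usp6nl, carries a similar name but encodes a Rab GTPase-activating protein and not a protease, which leaves 42 members of the enzyme family.

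The muscles came from young male Balb/c mice, 3 with a C26 tumor and 3 without. C26 is a colon adenocarcinoma line of mouse origin, and in the first group its cells had been inoculated under the skin of the right flank. This is a widely used model of cancer cachexia, the wasting of muscle and fat in cancer, and it rests on 1 tumor line. The gastrocnemius is a limb muscle made mostly of fast fibers, and its RNA was freed of rRNA and sequenced with reads of 50 bases.

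Ubiquitin is attached to proteins by ligases, and chains of it send proteins to the proteasome or change where they go and what they bind. USPs hold a papain-like catalytic domain with a cysteine in the active site and remove ubiquitin again, which can rescue a protein, edit a signal, or return ubiquitin to the free pool. In skeletal muscle the ubiquitin ligases of atrophy are best known, and a few USPs, such as Usp19 and Usp14, have also been studied there.

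The stretch of coding sequence around that cysteine is shown for 6 members, because it sets the enzymes apart from the member that lacks the residue. It was found in 33 members, of which 32 had a cysteine codon, 15 as TGT and 17 as TGC, and in 10 members it was not found by the pattern used. The sequences are from the mouse transcript with the longest coding sequence (GENCODE vM21), 48 bases each, 5′ to 3′, with the codon at the cysteine position in capitals.
Usp28: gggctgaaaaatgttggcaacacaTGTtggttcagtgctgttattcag
Usp25: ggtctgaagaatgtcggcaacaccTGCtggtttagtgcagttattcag
Usp13: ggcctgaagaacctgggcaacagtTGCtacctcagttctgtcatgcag
Usp5: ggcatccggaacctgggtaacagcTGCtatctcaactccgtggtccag
Usp30: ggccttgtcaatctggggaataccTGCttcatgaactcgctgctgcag
Usp39: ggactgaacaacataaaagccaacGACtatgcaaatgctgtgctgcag
The capitals stand at codon 171 of Usp28, 178 of Usp25, 343 of Usp13, 335 of Usp5, 77 of Usp30 and 233 of Usp39, where the codon is for aspartate. Usp28 and its closest relative Usp25 shared 41 of the 48 bases, the related Usp13 and Usp5 shared 35, Usp28 and Usp13, which are not close relatives, shared 34, Usp13 and Usp30 shared 30, and Usp28 and Usp39 shared 24. No 50-base window of a member's transcript occurred in another member, so reads of this length could tell the members apart, and 38 members had under 1% of their windows in any other gene. The exceptions were Usp49 with 51.8%, Usp1 with 23.2%, Usp9x with 7.3%, Usp12 with 2.41% and Usp10 with 1.36% of windows in common with other annotated transcripts, and their values are less certain for that reason.

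Levels are given as normalised TPM, that is, the deposited FPKM rescaled so that each library sums to 1000000 (transcripts per 1000000, TPM) and divided by a library factor, so they are per transcript length and can be set side by side between genes. Differences are given as log2 fold changes of TPM + 1, C26 minus control, with a standard error (SE) and the p-value of limma's moderated test after Benjamini-Hochberg adjustment across the 13363 genes. A gene was called at an adjusted p under 0.05. The labels give the mice only a replicate number, and the p-values measure the spread among these 6 muscles.

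The libraries showed muscle in all 6 samples. Of 10 fiber genes, 1 was called higher (Des), 1 lower (Myl1) and 8 were not called, and their summed level, set mostly by a few very abundant genes, was 97903 to 148962 in C26 and 157114 to 180861 TPM in control muscles. Several markers of other cell types differed between the groups, and their part in the results was not tested. Of all genes, 14.5% were called lower and 19.4% higher. All 7 adipocyte markers had lower values in C26 muscle (summed level 475 to 684 against 777 to 6184 TPM, 6 of 7 called lower), as had all 6 fibroblast markers (273 to 366 against 463 to 570 TPM, 4 called lower). The 6 adipocyte calls each held in at most 2 of the 6 fits that left out 1 muscle. Of 9 immune and blood cell markers listed, the 4 called higher were the haemoglobin genes Hba-a1 and Hbb-bs and the neutrophil genes S100a8 and S100a9, and 4 had values below 0 on the log2 scale of the difference, namely Ptprc (-1.99), Csf1r (-0.78), Mrc1 (-0.26) and Adgre1 (-0.08), none of them called. The ninth, the macrophage gene Cd68, was 61.7, 422 and 12.2 TPM in C26 against 7.11, 2.96 and 8.34 in controls, with C26 replicate 2 far above the rest, and its difference of 3.40 was not called (limma adjusted p = 0.0653). The sum of that list was 801 to 1312 against 360 to 455 TPM, with Hba-a1 its most abundant gene in every muscle. Endothelial markers summed to 64.5 to 68.3 against 75.4 to 92.7 TPM (1 of 5 called lower) and Schwann cell markers to 36.7 to 75.1 against 70 to 177 TPM (1 of 4 called lower). Control replicate 3 had 57.9 TPM of the leukocyte gene Ptprc against 0.394 to 1.21 in the other muscles, and C26 replicate 3 had 4838 TPM of the fast myosin Myh1 against 530 and 435 in the other C26 muscles.

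Many USP genes were higher in the muscle of tumor-bearing mice. Of the 43 members, 21 (48.8%) were called higher in C26, 1 was called lower, and 21 were not called, whereas 19.4% of all listed genes were called higher and 14.5% lower. The log2 fold change was above 0 for 37 members and below 0 for 6, and its median was 0.56 over the members and -0.05 over all listed genes. The 3 C26 values all exceeded the 3 control values for 30 members (69.8%, against 27.0% of all genes), all lay below them for 1 member (26.5% of all genes), and overlapped for 12. With all 6 muscles, among the members only Usp28 passed a fold change of 4 in addition to the adjusted p, and 1.77% of all genes did so in the higher direction and 1.73% in the lower. In whole muscle, a change in the number of cells of a type and a change in RNA per cell cannot be told apart.

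**Figure D1:**
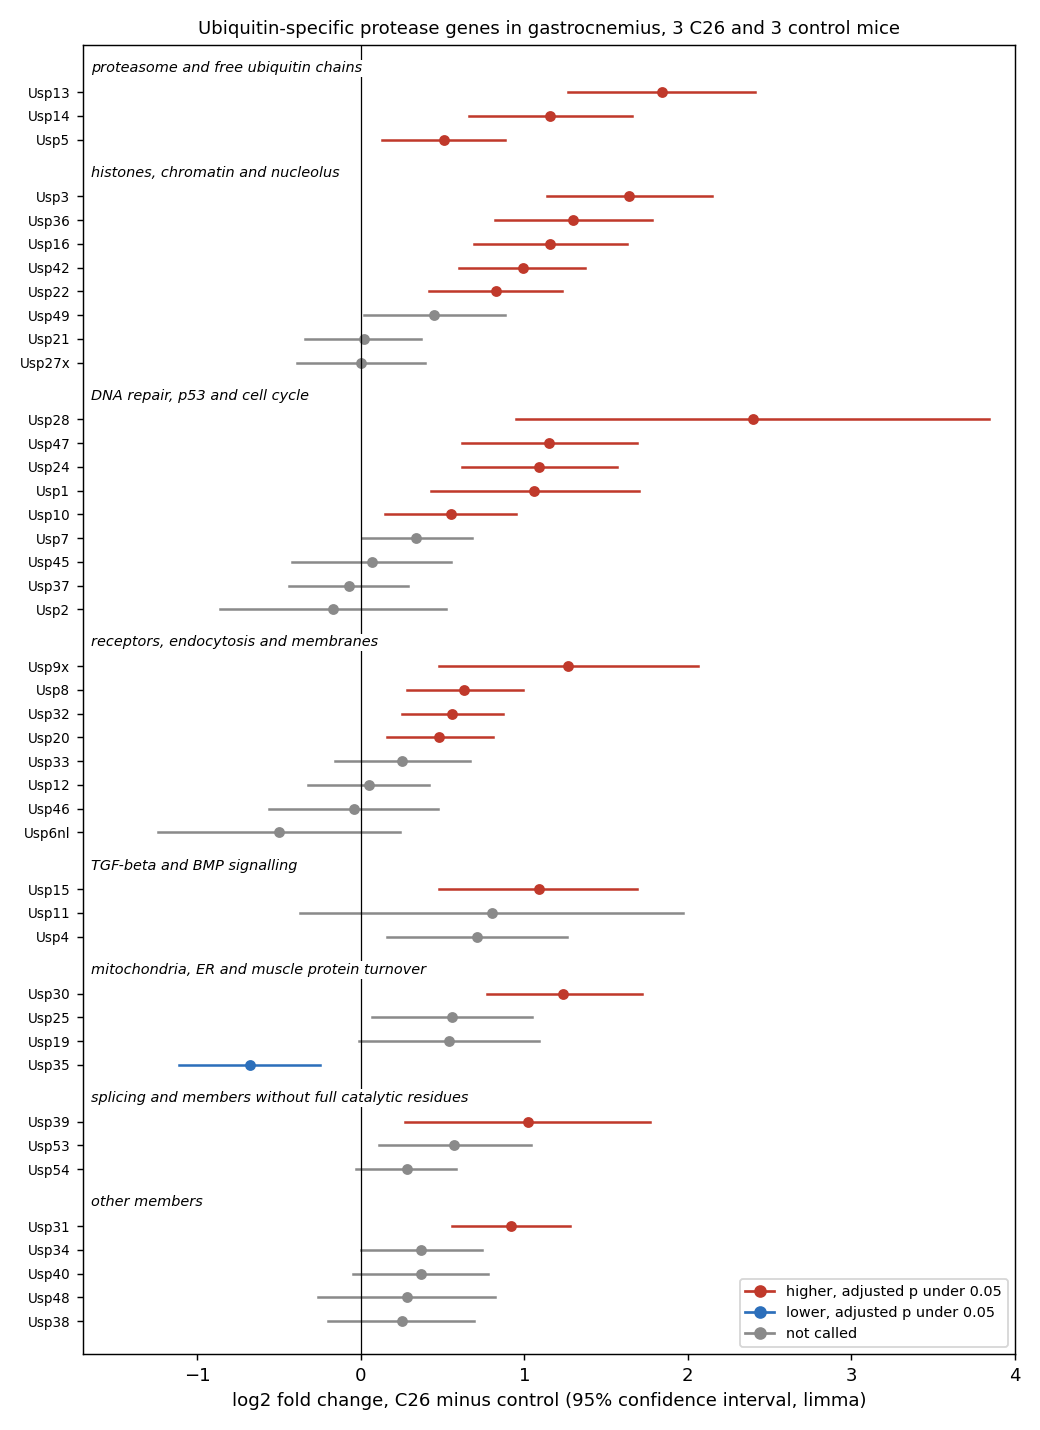
Log2 fold change (C26 minus control, horizontal axis) with its 95% confidence interval for each of the 43 members, grouped by role, from limma on 3 C26 and 3 control muscles. The 21 red members were called higher and 1 blue member, Usp35, was called lower; the 21 grey members were not called, and 37 of the 43 points lie right of 0.

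The size of the difference depended on the scale. On the FPKM as deposited, where the median over all genes was -0.14, the median over the members was 0.34, 34 members were above 0 and 13 were called higher, without Usp1, Usp5, Usp8, Usp9x, Usp10, Usp20, Usp32 and Usp39. The split over all genes also turned with that scale, from 19.4% higher and 14.5% lower to 12.6% higher and 18.7% lower. The summed FPKM of the libraries ran from 531061.17 to 585169.18 in C26 and from 626992.03 to 688300.49 in control muscles.

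Taken as a sum, the family made up 1582, 1782 and 1272 TPM in the 3 C26 muscles and 728, 864 and 676 TPM in the 3 controls, a mean of 1545 ± 257 against 756 ± 97.1 (SD, n = 3 each). That was 0.168%, 0.192% and 0.115% of all TPM in C26 and 0.0743%, 0.0815% and 0.068% in control muscle, with no overlap. The lead also passed to another member. Usp2, which acts on cyclin D1 and Mdm2, was the most abundant member in every control (12.1%, 12.9% and 13.8% of the family sum) and made up 3.61%, 5.09% and 9.72% of the sum in C26. Usp13 was the most abundant in every C26 muscle, with 19.5%, 19.9% and 16.8% of the sum against 10.7%, 11% and 9.84% in controls.

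**Figure D2:**
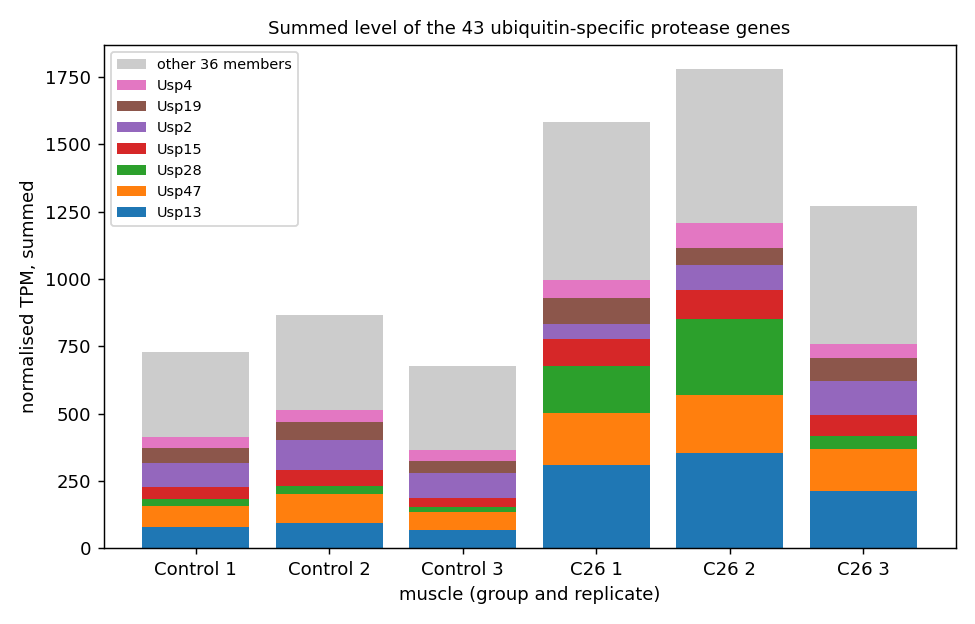
Summed normalised TPM of the 43 members in each muscle (bars, vertical axis from 0), with 7 members in color and the other 36 in grey. The 7 are the most abundant on the mean of the C26 muscles, and Usp28 ranked 10 in controls. The C26 bars stand at 1582, 1782 and 1272 and the control bars at 728, 864 and 676, and the blue Usp13 and green Usp28 segments are taller in C26.

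All 3 members tied to the proteasome or to free ubiquitin chains were called higher, against 19.4% of all genes higher and 14.5% lower. Usp13 and Usp5 are relatives that bind free ubiquitin chains, and Usp5 takes such chains apart, while Usp14 sits on the proteasome and trims ubiquitin from proteins before they are degraded. Usp13 (Entrez 72607, chr3:32816283-32938075, GRCm38.p6) stood at 308, 355 and 213 TPM in C26 and at 77.8, 95.3 and 66.5 in control muscle. Every C26 muscle thus held more Usp13 than any control, and the difference was 1.84 ± 0.24 (SE, limma adjusted p = 0.00464), a 3.58-fold rise. Usp14 was 58, 42.2 and 59.9 TPM in C26 and 23.5, 27.7 and 18.8 in controls, a rise of 1.16 ± 0.21 (limma adjusted p = 0.0101). Usp5 rose least of the 3, with 35.6, 41.2 and 40.5 TPM against 26.9, 31.5 and 23.6 and a difference of 0.51 ± 0.16 (limma adjusted p = 0.0468). The calls of Usp13 and Usp14 held when any 1 muscle was left out, and that of Usp5 held only without control replicate 2, with an adjusted p of up to 0.134 in the others. The call of Usp5 was also lost under most other settings, and with quantile normalization its difference was 0.17 (limma adjusted p = 0.42).

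Of 8 listed members that act on histones, chromatin or the nucleolus, 5 were called higher, none lower and 3 were not called, against 19.4% of all genes higher and 14.5% lower, with a median log2 fold change of 0.91. Usp3, a protease for ubiquitinated histones H2A and H2B, was 22.5, 16.5 and 19.5 TPM in C26 against 4.79, 4.67 and 7.43 in controls, so the lowest C26 value was above the highest control. Its rise of 1.64 ± 0.21 (limma adjusted p = 0.00456) was the third largest among the members. Usp36, a nucleolar enzyme that works in ribosome production, was 28.6, 29.3 and 21.4 against 8.86, 9.07 and 12.6 TPM (1.30 ± 0.20, limma adjusted p = 0.00688). Usp16, which removes ubiquitin from histone H2A, was 56.9, 70.2 and 44.1 against 24.2, 26.7 and 23.1 TPM (1.16 ± 0.20, limma adjusted p = 0.00847). Neither gene overlapped between the groups, and the same was true of the less abundant Usp42 and of Usp22.

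Usp42, a relative of Usp36, was 7.33, 7.07 and 5.45 TPM in C26 and 3.04, 2.44 and 3 in controls (0.99 ± 0.16, limma adjusted p = 0.00781). Usp22, the histone H2B protease of the SAGA coactivator complex, was 16.8, 13.8 and 11.8 against 6.75, 8.19 and 7.47 TPM (0.83 ± 0.17, limma adjusted p = 0.014). The call of Usp22 was lost without C26 replicate 1 or control replicate 1 (adjusted p up to 0.06), and the calls of Usp3, Usp16, Usp36 and Usp42 held without any 1 muscle. Usp49, Usp21 and Usp27x were not called. The difference was 0.45 for Usp49, which shares many of its windows with another transcript, and near 0 for Usp21 (0.02) and Usp27x (-0.00), whose signs turned with the scaling.

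The largest difference in the family stood in the group of DNA repair, p53 and cell cycle, where 5 of 9 members were called higher and none lower, against 19.4% and 14.5% of all genes (median 0.55). Usp28 (Entrez 235323, chr9:48985319-49042517, GRCm38.p6) binds 53BP1 and is known for stabilizing Myc. It stood at 172, 284 and 49.3 TPM in C26 and at 26.5, 27.6 and 20.5 in control muscle. The groups did not overlap, but the C26 muscles were spread widely (168 ± 118 against 24.9 ± 3.82 TPM, SD, n = 3 each). The difference was 2.40 ± 0.60 with a 95% confidence interval of 0.95 to 3.84 (limma adjusted p = 0.0257). When each muscle was dropped in turn, its call held only without C26 replicate 3, in which the difference was largest at 3.11. In the others the adjusted p reached 0.092, and the difference was never below 1.86. Without moderation of the variance, in an ordinary linear model per gene, the adjusted p was 0.0946.

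Usp47, which acts on DNA polymerase beta, was among the most abundant members at 196, 214 and 155 TPM in C26 and 79.4, 108 and 67 in controls (1.15 ± 0.22, limma adjusted p = 0.0123). Usp24, a very large enzyme with p53 among its substrates, was 42.1, 34.3 and 31 against 14.4, 20.3 and 14.2 TPM (1.09 ± 0.20, limma adjusted p = 0.0101). Both were more than doubled on the mean, with folds of 2.23 and 2.13. Usp1, which releases ubiquitin from PCNA and Fancd2, was 20.9, 17.9 and 10.4 against 6.48, 6.52 and 8.12 TPM (1.06 ± 0.26, limma adjusted p = 0.0245). Usp10, the partner of the stress granule protein G3bp1, was 30.1, 29.6 and 22 against 18.6, 18.8 and 16.9 TPM (0.55 ± 0.17, limma adjusted p = 0.0443). Usp24 kept its call without any 1 muscle, Usp47 lost it without C26 replicate 1 or control replicate 1 (adjusted p up to 0.0534), Usp1 was called only without C26 replicate 3 or control replicate 3, and Usp10 only without C26 replicate 3. With all muscles, the call of Usp10 was lost under every alternative setting but the variance trend, and its difference was 0.31 with quantile normalization (limma adjusted p = 0.171).

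Usp7, the p53 and Mdm2 protease, was 34.4, 29.3 and 36.5 TPM in C26 and 24.8, 26 and 27.1 in controls, and its difference of 0.34 ± 0.14 did not pass the test (limma adjusted p = 0.1). Usp2 was 57.1, 90.7 and 124 TPM in C26 and 87.8, 112 and 93.2 in controls. These values overlapped, with a difference of -0.17 ± 0.29 and a 95% confidence interval of -0.86 to 0.52 (limma adjusted p = 0.669). Usp2 therefore gave up its place as the most abundant member while its own level did not pass the test in either direction. Usp37 (-0.07) and Usp45 (0.07) also had overlapping values.

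**Figure D3:**
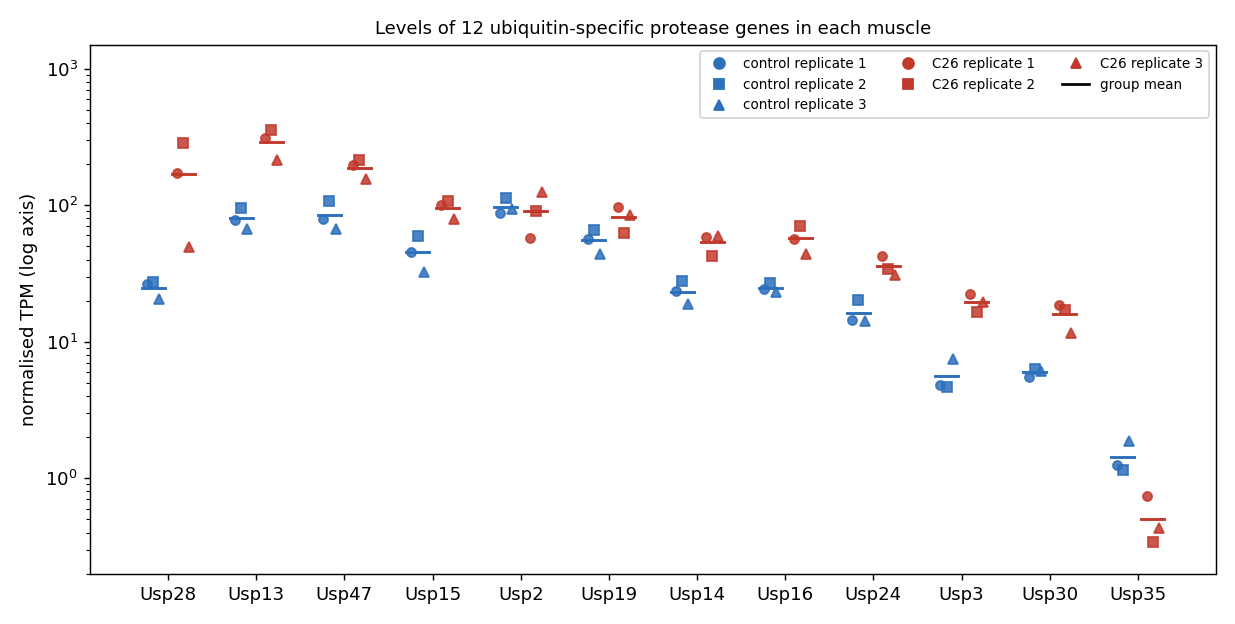
Normalised TPM (log axis) of 12 members in each muscle, with control muscles in blue, C26 muscles in red, a marker shape per replicate and a line at each group mean. The C26 points of Usp28 run from 49.3 to 284 TPM, while Usp2 and Usp19 overlap between groups and Usp35 is the one member shown that lies lower in C26.

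Among the members of receptor sorting, endocytosis and membranes, 4 of 8 were called higher and none lower, against 19.4% and 14.5% of all genes (median 0.37). Usp9x, a very large X-linked enzyme with many substrates in signaling and trafficking, was 21.6, 17.4 and 10.4 TPM in C26 and 5.87, 8.63 and 4.13 in controls (1.27 ± 0.33, limma adjusted p = 0.0285). The other 3 rose by less. Usp8, which deubiquitinates receptors such as EGFR on endosomes, was 18.2, 19.4 and 15.7 against 10.2, 12.4 and 10.8 TPM (0.63 ± 0.15, limma adjusted p = 0.0206). Usp32, which works on late endosomes, was 4.89, 5.44 and 4.85 against 2.84, 3.2 and 3.28 TPM (0.56 ± 0.13, limma adjusted p = 0.0189). Usp20, a regulator of beta-adrenergic receptor recycling, was 7.95, 9.18 and 7.93 against 6.18, 5.65 and 5.21 TPM (0.48 ± 0.14, limma adjusted p = 0.0352).

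In none of these 4 genes did the groups overlap, yet none kept its call in all 6 fits without 1 muscle. Usp8 and Usp32 lost it without C26 replicate 1, C26 replicate 2 or control replicate 1. Usp9x was called only without C26 replicate 3 or control replicate 2 (adjusted p of up to 0.0972 in the others), and Usp20 only without C26 replicate 3. Usp33, the nearest relative of Usp20, differed by 0.25 and was not called. Usp12 (0.05) and Usp46 (-0.04), a close pair that needs the cofactor Wdr48, had overlapping values, and their signs turned with the scaling. Usp6nl, the one that is no protease, had overlapping values too, with a difference of -0.50 (limma adjusted p = 0.239).

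Usp4, Usp11 and Usp15 share an architecture and act on receptors and Smads of the TGF-beta and BMP pathways. Usp15 was 101, 108 and 78.9 TPM in C26 and 45.2, 59.6 and 32.2 in controls, a rise of 1.09 ± 0.25 (limma adjusted p = 0.0203). Its call was lost without C26 replicate 1, C26 replicate 2 or control replicate 1, with differences of 1.04, 0.99 and 1.10 and a limma adjusted p of up to 0.0762. It was also lost with quantile normalization, where the difference was 0.69 (limma adjusted p = 0.0603), and in the ordinary linear model (adjusted p = 0.0693). Usp4 was 67.2, 94.6 and 52.4 against 40, 45.8 and 40.5 TPM. These did not overlap, and the difference of 0.71 ± 0.23 just missed the threshold (limma adjusted p = 0.0538). Usp11 was much scarcer, with 4.39, 7.12 and 1.68 against 1.54, 0.88 and 3.64 TPM, and its difference of 0.80 ± 0.49 was not called (limma adjusted p = 0.236).

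The members tied to mitochondria, the endoplasmic reticulum and muscle protein turnover did not move as one. Usp30 (Entrez 100756, chr5:114100299-114123510, GRCm38.p6) sits on the outer mitochondrial membrane and opposes the ligase Parkin. It was 18.7, 17.2 and 11.6 TPM in C26 and 5.55, 6.31 and 6.15 in controls. Every C26 value was above every control, with a rise of 1.24 ± 0.20 (limma adjusted p = 0.00758) that held without any 1 muscle. Usp35, which has also been placed at mitochondria, was the only member called lower, with 0.744, 0.342 and 0.435 TPM in C26 against 1.24, 1.15 and 1.86 in controls. It lies near the bottom of the measured range, its difference was -0.68 ± 0.18 (limma adjusted p = 0.0293), and the call held only without control replicate 2 when each muscle was dropped in turn. With a pseudocount of 0.1 the difference was -1.35 and the call held, and with quantile normalization it was -0.28 and the call was lost (limma adjusted p = 0.256).

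Usp19, which has a form anchored in the endoplasmic reticulum, was 96.2, 62.4 and 85.3 TPM in C26 and 56.8, 65.9 and 43.8 in controls. C26 replicate 2 lay below control replicate 2, and the difference of 0.54 ± 0.23 was not called (limma adjusted p = 0.109, 95% confidence interval -0.01 to 1.09). Usp25, which acts in the disposal of misfolded ER proteins, was 42.2, 51.1 and 46.8 against 33.1, 38.5 and 23.8 TPM. Its groups did not overlap, but its 0.56 ± 0.20 was not called (limma adjusted p = 0.0742).

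Of the members without a complete active site or long classed as inactive, Usp39, a splicing factor of the tri-snRNP, was called higher. It was 14.4, 16.2 and 9.24 TPM in C26 against 5.6, 3.98 and 8.97 in controls (1.02 ± 0.31, limma adjusted p = 0.0467), with the lowest C26 value only just above the highest control and the call kept only without C26 replicate 3 or control replicate 3. Usp53, a protein of tight junctions, differed by 0.57 (limma adjusted p = 0.0625) and Usp54 by 0.28 (limma adjusted p = 0.134), and neither was called although their groups did not overlap. Of the 5 remaining members 1 (20%) was called higher, a share near the 19.4% of all genes. It was Usp31, with 3.56, 4.23 and 2.95 against 1.5, 1.42 and 1.31 TPM (0.92 ± 0.15, limma adjusted p = 0.00808), and its call held without any 1 muscle. Usp34, which acts on axin in Wnt signaling, Usp38, Usp40 and Usp48 were not called, at 0.37, 0.25, 0.37 and 0.28.

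The calls differed in how far they rested on single muscles. All 22 called members had groups that did not overlap, and 9 of the members not called did so as well. Over all genes, 27.0% were higher and 26.5% lower in C26 without overlap. Separation is no added support for a call, since both rest on the same values. The 9 members called in each of the 6 fits that left out 1 muscle were Usp3, Usp13, Usp14, Usp16, Usp24, Usp30, Usp31, Usp36 and Usp42, and these 9 were also called under all 8 alternative settings, as were Usp22 and Usp47. Besides the losses on FPKM named above, the ordinary linear model lost Usp1, Usp5, Usp9x, Usp10, Usp15, Usp28, Usp35 and Usp39, quantile normalization Usp5, Usp10, Usp15, Usp35 and Usp39, the pseudocount of 0.1 Usp5, Usp10 and Usp20, TPM without the library factor Usp10, Usp20 and Usp39, the filter at 1 TPM Usp5 and Usp10, and the variance trend Usp20. The number called higher was 9 without C26 replicate 1, 9 without control replicate 1, 11 without C26 replicate 2, and 16 without control replicate 2 or 3. C26 replicate 3 was the lowest of its group for 18 of the 21 members called higher (85.7%), and for 71.8% of all genes called higher, and without it 21 members were called. Leaving out a muscle also lowers the number of samples in the fit. The share of all genes called in those fits is not given here. These counts thus do not show whether members lost more calls than other genes.

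Whether related enzymes moved together was asked with the log2 ratio of the pair within each muscle, over 12 pairs with both members listed. The ratios overlapped between groups for 6 pairs and did not for the other 6, a share near that of single genes, of which 27.0% were higher and 26.5% lower in C26 without overlap. For these 6 the two-sided exact permutation test gave p = 0.1 (0.2 after Benjamini-Hochberg adjustment over the 12 pairs). That is the smallest p that 3 against 3 samples allow, so the test could not reach 0.05 and the ratios are given as values. Usp25 over Usp28, whose cysteine stretches are nearly alike, was -2.0, -2.45 and -0.07 in C26 and 0.31, 0.47 and 0.21 in controls, a mean difference of -1.84 on the log2 scale. Usp13 over Usp5 was 3.08, 3.07 and 2.37 against 1.5, 1.57 and 1.45, a mean difference of 1.33. The more abundant of the latter pair thus took a larger lead in every C26 muscle, while C26 replicate 3 stayed close to the controls in the first.

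The other pairs without overlap differed by less. They were Usp35 over Usp38 (-0.93), Usp27x over Usp22 (-0.83), Usp47 over Usp7 (0.81) and Usp42 over Usp36 (-0.31). Usp27x lay between 0.0379 and 0.359 TPM, so its term is almost constant next to the added 1 and that ratio restates the rise of Usp22. Some of these values moved with the scale. Usp35 over Usp38 was -1.61 with a pseudocount of 0.1 and -0.38 with quantile normalization, Usp42 over Usp36 turned to 0.08 with quantile normalization, and Usp27x over Usp22 was -0.62 on FPKM. The pairs that overlapped were Usp4 over Usp15 (-0.38), Usp54 over Usp53 (-0.30), Usp11 over Usp15 (-0.28), Usp20 over Usp33 (0.23), Usp4 over Usp11 (-0.09) and Usp12 over Usp46 (0.09). With quantile normalization Usp11 over Usp15 turned to 0.42, Usp12 over Usp46 turned to -0.19 and Usp4 over Usp11 was -0.81, and Usp11 over Usp15 was -0.01 with a pseudocount of 0.1.

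**Figure D4:**
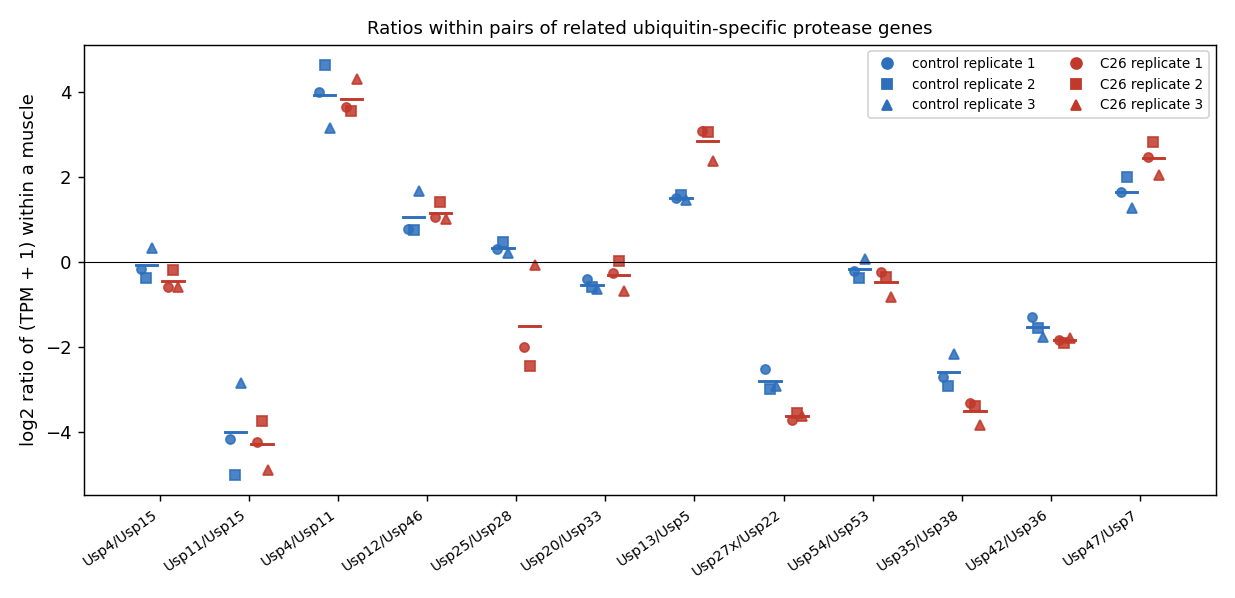
Log2 ratio of TPM + 1 within each muscle for 12 pairs of related members (first over second), with control muscles in blue, C26 muscles in red and a line at each group mean. Usp25 over Usp28 lies between 0.21 and 0.47 in controls and between -2.45 and -0.07 in C26, and Usp13 over Usp5 between 1.45 and 1.57 and between 2.37 and 3.08.

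Other deubiquitinases and related genes, whose symbols fall outside the rule, are given by their counts, and the difference from the members was not tested. Their list was not restricted by enzyme class and also holds Cyld, Uspl1 and Pan2. Of 35 listed, 10 (28.6%) were called higher, 3 lower and 22 not, where 19.4% of all listed genes were called higher and 14.5% lower, and the median log2 fold change was 0.18. The largest rises were those of Otud1 (2.71, limma adjusted p = 0.00677) and Otulin, which cuts linear ubiquitin chains (1.99, limma adjusted p = 0.0219). Otud1 was 46, 114 and 43.3 TPM in C26 and 5.75, 10.3 and 10.2 in controls, and Otulin 70, 146 and 54.6 against 14.1, 15.4 and 36. The call of Otulin held only without C26 replicate 3 or control replicate 3, and that of Otud1 held without any 1 muscle. Josd1 (1.16) and Mindy1 (1.12) followed, with limma adjusted p of 0.0117 and 0.00864, the former lost without C26 replicate 1 or control replicate 1. Tnfaip3, the NF-kB inhibitor A20, fell by 1.52 (limma adjusted p = 0.0144), from 2.13, 2.44 and 5.78 TPM in controls to 0.691, 0.445 and 0.265. The other two called lower, named after their values were seen, were Otub2 (-1.01) and Mpnd (-0.90). The call of Otub2 held without any 1 muscle, and that of Mpnd only without C26 replicate 3 or control replicate 3.

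Proteins that USPs bind were called higher in 7 of 19 cases (36.8%, against 19.4% of all genes) and lower in 1 (14.5% of all genes), with a median log2 fold change of 0.34. The proteasome subunit Psmd2, on which Usp14 docks, was 725, 751 and 432 TPM in C26 and 147, 183 and 134 in controls (2.0, limma adjusted p = 0.00456). Hgs, which with the Usp8 partner Stam forms the first complex of endosomal sorting, was 130, 153 and 66.1 against 15.8, 17.4 and 17 TPM (2.64, limma adjusted p = 0.00376). Both thus lay above all controls in every C26 muscle, together with the member they work with. Gmps, the Usp7 partner and GMP synthase, rose by 1.33 (limma adjusted p = 0.00723), G3bp1, the Usp10 partner, by 1.27 (limma adjusted p = 0.0183), and Dmwd, a cofactor of Usp12 and Usp46, by 1.27 (limma adjusted p = 0.0138). Leaving out C26 replicate 1 ended the calls of Dmwd and G3bp1, and leaving out control replicate 1 that of G3bp1. The 1 partner called lower, named after its value was seen, was Atxn7l2 (-1.17, limma adjusted p = 0.00597), a relative of the SAGA subunit Atxn7.

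The regions just before the gene starts were read for 2 motifs, on either strand, in the 34 members with an entry (RefSeq, GRCm38.p6, 250 bases before the start). GTAAACA, the core site of FoxO factors, was in 0 of 34 members and in 3.54% of 27025 genes. CACGTG, an E-box, was in 4 members (11.8%), Usp4, Usp6nl, Usp16 and Usp31, and in 6.86% of genes. Of these, 2 were called higher, and the sequence of the one with the larger rise, Usp16 (chr16:87454735-87454984, + strand), is given 5′ to 3′ with the E-box in capitals, which begins 77 bases before the start.
Usp16: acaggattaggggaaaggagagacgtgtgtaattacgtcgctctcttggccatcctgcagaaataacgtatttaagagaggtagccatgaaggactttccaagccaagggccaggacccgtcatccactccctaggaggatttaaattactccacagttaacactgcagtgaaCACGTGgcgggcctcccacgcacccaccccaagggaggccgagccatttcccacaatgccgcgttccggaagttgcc
The median GC content of these regions was 65.8% in the members and 52% over all genes. A match is a string of letters and no evidence of binding, and factor binding was not measured in these muscles.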

How the data were processed

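RNA from 3 C26 and 3 control gastrocnemius muscles was compared, grouped by the sample labels. The authors removed adaptor, low-quality and rRNA reads, aligned the rest with Bowtie2 and deposited FPKM values from RSEM, given to 2 decimals and above 0 in every sample. Their methods name GRCm38.p5, whereas the submitters' processing notes name an older build and list HISAT2 2.0.4, Bowtie2 2.2.5 and RSEM 1.2.12. Read counts were not analysed here, so depth and counting error are unknown.

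Symbols were matched to 13327 of 13363 Entrez IDs. FPKM were rescaled to 1000000 per sample (TPM) and divided by TMM factors (unweighted, 30% of log ratios and 5% of levels trimmed), and log2(TPM + 1) was tested with limma 3.58.1 in R 4.3.3, with Benjamini-Hochberg adjustment over all genes. The fold change on this scale understates the change of low genes. The fits were tested on simulated data. Sequences came from GENCODE vM21 and RefSeq (GRCm38.p6), read with biopython 1.88, and figures were drawn with matplotlib 3.10.9.

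The members, lists and rules were chosen with earlier results of these data known. The genes named are members called at an adjusted p under 0.05, members of interest in muscle or of the related pairs, and up to 5 called genes with the largest change of each other list. Members outside that rule are given by their difference so that each is accounted for. Replicate numbers gave correlations of deviations of -0.039, -0.084 and -0.112 between the groups. The labels name no pairing, and the main fit did not pair the samples. Such correlations over all genes cannot exclude a batch shared by muscles of the same number. The alternatives were 0.1 as pseudocount, genes with at least 1 TPM on average, no TMM factor, log2(FPKM + 1) without rescaling, quantile normalization, a replicate block, a variance trend, per-gene linear models without moderation, and leaving out each muscle.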

Additional observations from a re-analysis of the deposited data

How the results depend on the processing

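The 21 members called higher were 13 on the FPKM as deposited and 9 to 21 with 1 muscle left out. With the replicate number as a block, which pairs muscles known to share only a number, 14 members were called higher and 0 lower (13.8% and 9.25% of all genes). That fit lost Usp1, Usp5, Usp8, Usp10, Usp20, Usp32, Usp35 and Usp39, and 5 other deubiquitinases were called higher in it. No member (0) was called lower with quantile normalization, the block or an ordinary linear model, where Usp35 stood at -0.28, -0.68 and -0.68. The same held among genes of at least 1 TPM on average, a filter that removes Usp35 untested. Of all genes, 11.8% were called lower with quantile normalization, 7.18% with the ordinary linear model and 15.6% under that filter. With 1 muscle left out 0 to 1 were lower. Usp28 was the 1 member past 4-fold, 0 with the ordinary linear model and 0 to 2 with 1 muscle left out (2 without C26 replicate 3, 0 without any other). Other deubiquitinases called higher numbered 3 to 11 with 1 muscle left out, and those called lower were 5 on FPKM, 1 with the ordinary linear model and 2 to 4 with 1 muscle left out. Partners called higher were 4 with the ordinary linear model and 4 to 7 with 1 muscle left out. Those called lower were 2 on FPKM and 1 to 2 with 1 muscle left out. Over all genes the shares were 12.6% higher and 18.7% lower on FPKM. With the ordinary linear model they were 11.4% and 7.18%, and those with 1 muscle left out are not given here. The log2 fold changes of members and of up to 5 called genes of each other list were compared under the 8 alternatives. Of these, 364 kept direction and call, 45 lost the call and 5 gained it. Among them the sign turned only for members near 0. On FPKM it turned for Usp45 (-0.10), Usp12 (-0.14) and Usp21 (-0.17). With quantile normalization it turned for Usp21 (-0.053), Usp27x (0.17), Usp46 (0.29) and Usp37 (0.31), and without TMM for Usp27x (0.014). Cell type markers are not counted here, and some turned as well, such as Mrc1 (0.08) and Adgre1 (0.26) with quantile normalization. With 1 muscle left out the difference ran from -0.11 to 0.21 for Usp45, -0.04 to 0.17 for Usp12, -0.047 to 0.10 for Usp21, -0.083 to 0.11 for Usp27x, -0.23 to 0.081 for Usp46, -0.17 to 0.027 for Usp37 and -0.43 to 0.13 for Usp2. The cause was not tested. With 3 muscles a group and unknown depth, differences near the threshold could not be resolved.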
